A study of Macaca mulatta with 6 samples.

Results

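Stretches of the rhesus macaque autosomes with a middling number of CpG sites, lying apart from the long runs of CpGs that resemble CpG islands, are described here. A CpG is a cytosine followed by a guanine, the site at which mammalian DNA is mainly methylated. Each member is a non-overlapping tile of 1 kb, counted from base 1 of its chromosome, with 20 to 39 CpGs in the deposited table. No part of a member lies within 2000 bases of a CpG run, which is here a series of at least 40 CpGs with steps of no more than 50 bases. There were 211916 such tiles among the 2543398 autosomal tiles with a listed CpG, or 8.33%, and among 2686702 tiles in the whole table. They are called mid-density tiles below.

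The DNA came from peripheral blood mononuclear cells, the lymphocytes and monocytes of blood, of 6 adult female rhesus macaques (Macaca mulatta) and was studied by bisulfite sequencing. By their labels 3 of these females were of high rank (rank 1) and 3 of low rank (rank 5), which poses the question of whether social rank goes with DNA methylation. The 12 columns of values in the table carry no names, so none could be tied to an animal or a rank, and none was used. No methylation level and no read depth is therefore given, no animals are compared, and every value below is a full count over listed CpG positions, without replicate or sampling error.

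In mammalian genomes most CpGs have been lost over time, because methylated cytosine is prone to mutate to thymine. CpG islands, which often lie at gene starts and are mostly unmethylated there, are the well-known exception. Outside islands the remaining CpGs are mostly methylated, and many of them lie in repeated sequences. In primates the Alu elements, short repeats present in very many copies and more frequent in gene-rich DNA, hold a large part of these. Neither a genome sequence nor an annotation was used here, so no tile was assigned to a repeat, gene, exon, intron or promoter, and no sequence is shown.

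The mid-density tiles held 5345433 CpGs, which was 20.7% of the 25805743 listed on the autosomes. Tiles of the same CpG number that lay within 2000 bases of a CpG run were far fewer, at 24311, and held 2.63% of the CpGs. These are called near-run tiles, and they serve below as the closest comparison, since they match the members in CpG number and differ in their distance from a run. Of the near-run tiles, 7070, or 29.1%, overlapped a run. Tiles of 40 or more CpGs numbered 38428 and held 9.04% of the CpGs, while the 1640712 tiles of 5 to 19 CpGs held 60.5%.

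Most members sat close to the lower limit of the rule. A member held a median of 24 CpGs, against a median of 8 over all autosomal tiles with a listed CpG. Those with 20 to 24 CpGs made up 54.2% of the members and those with 30 to 39 made up 18.3%. The number of tiles fell steadily with CpG number, without a step at either limit. Away from runs, 32202 tiles had 19 CpGs and 28676 had 20, while 1789 had 39 and 1510 had 40. The distance limit likewise cut through a gradual decline, with 6934 tiles of 20 to 39 CpGs lying 1001 to 2000 bases from a run and 6219 lying 2001 to 3000 bases from one.

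The order of the spacings between neighbouring CpGs, which the rule does not use, showed a repeated arrangement in the members. The most frequent series of 5 consecutive spacings in mid-density tiles was 4, 2, 38, 5 and 4 bases, found 10175 times. Its mirror image, 4, 5, 38, 2 and 4 bases, came second with 10121 occurrences. The next 4 were extensions of the same arrangement by neighbouring steps: 2-38-5-4-7 with 8199 occurrences, its mirror image 7-4-5-38-2 with 8116, 14-7-4-5-38 with 7491, and 38-5-4-7-14 with 7438. The series 24-20-4-8-4 and its mirror image 4-8-4-20-24, also known from earlier results of these data, ranked 13 and 14 with 5827 and 5778 occurrences. Each series was about as frequent as its mirror image, the form it takes when the other strand of the DNA is read.

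A tile with any of the 2 known series, in either direction, was found far more often among the members than among near-run tiles. Of the mid-density tiles, 27868, or 13.2%, held one (95% Wilson interval 13.0% to 13.3%, which covers counting error alone and treats tiles as independent). Among the near-run tiles it was 1405, or 5.78% (5.49% to 6.08%). Near-run tiles hold somewhat more CpGs than the members, with means of 27.9 and 25.2. Weighted to the CpG numbers of the members, the near-run share was 4.99%. Leaving out the near-run tiles that overlap a run gave 6.94%. The share was 4.96% in tiles of 40 or more CpGs and 0.360% in tiles of 5 to 19. Of all 37090 autosomal tiles of 5 or more CpGs that held one of these series within their bounds, 75.1% were mid-density tiles. Members made up 8.33% of all autosomal tiles with a listed CpG. The CpGs of a series count towards the CpG number that the rule uses, so this concentration is partly set by the rule. The difference from near-run tiles depended on how a run is defined. With runs of 20 or more CpGs in place of 40, tiles away from runs held a series in 6.39% and those near runs in 19.6%.

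Both known series were parts of one longer arrangement. All 20296 occurrences of 4-2-38-5-4 or its mirror image within mid-density tiles were laid over each other in the same direction, and the share with a listed CpG was counted at each base around them. Besides the 6 CpGs that define the anchor, 17 positions carried a CpG in at least 20% of occurrences, the last of them 273 bases from the first CpG of the anchor. At 60, 74, 94 and 105 bases the shares were 72.1%, 88.6%, 60.2% and 75.9%. Further on they were lower, between 21.2% and 40.2%. The CpGs at 135, 139, 147, 151, 171 and 195 bases, present in 31.6% to 40.2% of occurrences, are separated by exactly 4, 8, 4, 20 and 24 bases, which is the second known series. Beyond 300 bases after the anchor the share at any base up to 600 was at most 1.20%, and before the anchor, from 600 to 100 bases upstream, it was at most 1.45%. The arrangement of 23 positions is called the CpG ladder below.

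**Figure D1:**
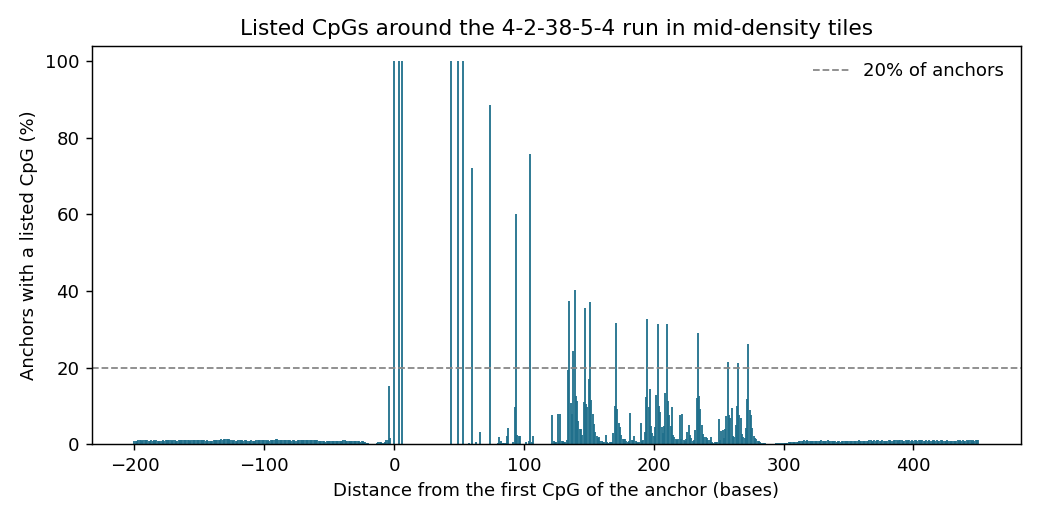
Share of the 20296 occurrences of the 4-2-38-5-4 spacing series in mid-density tiles (both directions, aligned) that have a listed CpG at each base, by distance in bases from the first CpG of the series. The 6 bars at 100% are the CpGs that define the series, the further bars are tallest at 60 to 105 bases, and the last position above the dashed line at 20% lies 273 bases from the start.

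The ladder was the same in near-run tiles where the anchor occurred there. Over the 1025 occurrences in near-run tiles, which were not used to find the positions, the shares at 60, 74, 94 and 105 bases were 75.4%, 88.2%, 61.0% and 77.3%. Those at 135 and 195 bases were 37.6% and 33.5%, against 37.4% and 32.7% in the members. Read from the odd-numbered autosomes alone, with 11071 occurrences in members, all 23 positions and no others passed the limit of 20%.

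Many members carried an incomplete copy of the ladder, as counted by the largest number of their CpGs that fall on its positions in any placement and either direction. A tile with 8 or more such CpGs is said to hold the ladder. By this count 71144 members, or 33.6%, held it, against 4054 near-run tiles, or 16.7%, which was 15.1% when weighted to the CpG numbers of the members and 20.1% without the tiles that overlap a run. Tiles of 40 or more CpGs had a higher share than the members, 15175 tiles or 39.5%, and tiles of 5 to 19 CpGs had 1.57%. These classes differ from the members in how many CpGs can fall on ladder positions, and the median of the largest number was 7 in tiles of 40 or more CpGs, 5 in members and near-run tiles, and 3 in tiles of 5 to 19. The count in members had more than one peak. Most common was 4 CpGs, with 61977 tiles, and from 11299 tiles at 7 the number rose to 12607 at 10 CpGs, the number of ladder positions from the anchor's first CpG to that at 105 bases. It then fell to 2084 tiles at 14 and rose again to 2930 at 18 CpGs. The fullest copies, with 22 of the 23 positions, were found in 224 tiles. The positions at 138 and 139 bases are adjacent and cannot both hold a CpG.

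The ladder share varied with the CpG number of the member but exceeded that of near-run tiles throughout. It was 28.5% in members of 20 to 24 CpGs, 40.5% at 25 to 29, 40.1% at 30 to 34 and 34.5% at 35 to 39. In near-run tiles the corresponding shares were 11.9%, 19.2%, 20.5% and 17.8%. The members had the higher share on 20 of 20 autosomes. With runs of 20 or more CpGs the difference reversed here too, with 22.7% away from runs and 42.7% near them. A nearly full ladder copy, whose steps are at most 38 bases, can itself form a run of 20 CpGs. Its tile then counts as near a run. Among the members, 1937, 884 and 224 tiles had 20, 21 and 22 CpGs on ladder positions. How much of the reversal comes from such tiles was not tested.

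Single spacings in the members showed the same arrangement in part. How often a spacing occurred was set against the median for the 8 spacings on each side of it (fewer for the shortest), and over-represented means a ratio above 1.3. Among spacings from 2 to 99 bases, 9 passed in mid-density tiles: 4, 7, 8, 20, 24, 30, 31, 38 and 44 bases. Of these, 31 and 44 bases are not steps between neighbouring ladder positions. They are distances between ladder positions farther apart, such as 74 to 105 bases and 151 to 195 bases. The ladder steps of 2, 3, 5, 11, 14 and 23 bases did not pass. The highest ratios were 2.36 at 8 bases, 2.31 at 4, 2.09 at 38, 1.93 at 24 and 1.88 at 20. In near-run tiles these 5 spacings had ratios of 1.57, 1.56, 1.499, 1.42 and 1.34. In tiles of 5 to 19 CpGs, few of which held the ladder, they were 1.71, 1.42, 1.24, 1.28 and 1.18. The over-represented spacings there were 4, 8 and 32 bases. An excess of the spacings of 4 and 8 bases was therefore not particular to the members or to tiles with the ladder. Members that did not hold the ladder had 2 over-represented spacings, 4 and 8 bases, both at 1.37, and their ratios at 38, 24 and 20 bases were 1.16, 1.25 and 1.12. In members that held it these 3 were 4.79, 3.83 and 4.10. Splitting the tiles by the ladder splits them by these spacings to some extent, so these last values describe the split and do not test it.

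**Figure D2:**
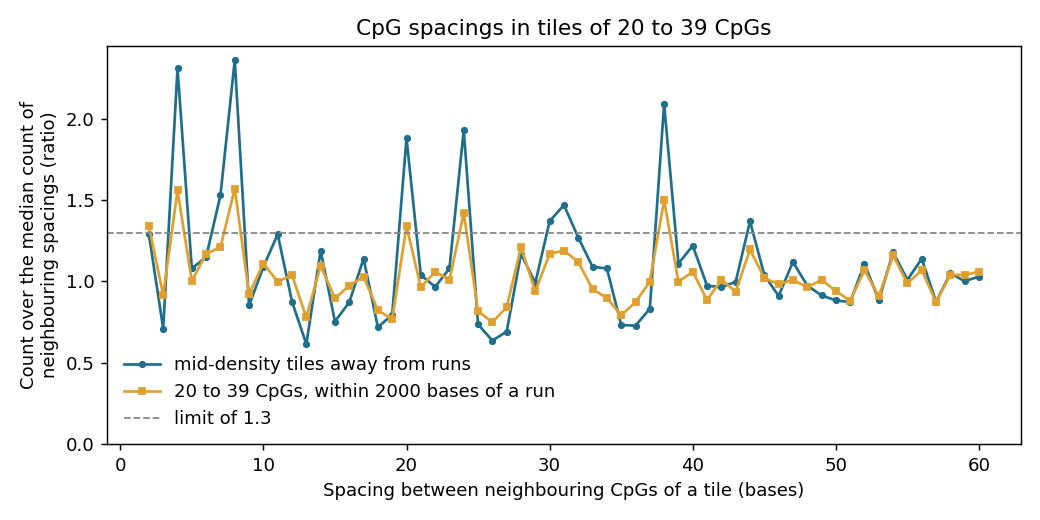
Count of each spacing between neighbouring CpGs of a tile over the median count of the spacings beside it, against spacing in bases, for mid-density tiles and for near-run tiles. Both lines peak at 4, 8, 20, 24 and 38 bases, and the peaks of the mid-density tiles are higher, up to 2.36 against 1.57 at 8 bases.

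Within a member the CpGs were bunched to a varying degree. The densest 300 bases of a member held a median of 55.6% of its CpGs, with 42.9% at the 10th and 81.8% at the 90th percentile. Near-run tiles had a median of 54.5% and a 90th percentile of 74.1%. At 25 CpGs per tile both medians were 56.0%, and the 75th percentiles were 76.0% in members and 64.0% in near-run tiles. At 30, 35 and 39 CpGs the members had the lower medians, 53.3%, 51.4% and 48.7%. Near-run tiles had 56.7%, 54.3% and 51.3% there. Members with the ladder had a median of 73.1% and those without had 50%, which is partly built into the split, since a ladder means at least 8 CpGs no more than 273 bases apart.

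Mid-density tiles were unevenly shared out among the autosomes. Chromosome 19 had the most, 243 per 1000 tiles with a listed CpG, and chromosome 16 followed with 183. Chromosome 5 had the fewest, 43.9 per 1000, next to chromosome 2 with 49.9, so that the range was 5.53-fold. Over all autosomes the value was 83.3. Chromosomes 19, 16, 10 and 20 stood apart from the rest, at 243, 183, 160 and 144 per 1000, while the other 16 lay between 43.9 and 94.1. These 4 chromosomes held 23.6% of the members on 11.2% of the tiles. The X chromosome, which the rule leaves out, had 6825 tiles of this kind, or 47.8 per 1000, 0.573 times the autosomal value. Near-run tiles ranged more widely, 15.8-fold between chromosomes 19 and 5, and tiles of 40 or more CpGs ranged 11.5-fold. The mean CpG number of a member hardly varied, from 24.5 on chromosome 5 to 26.4 on chromosome 19.

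The members with and without the ladder were not shared out alike. Between chromosomes 19 and 5 members without the ladder differed 7.08-fold, at 173 and 24.5 per 1000 tiles, and members with it differed 3.59-fold, at 69.9 and 19.4. The share of members with the ladder was highest on chromosome 2, at 47.4%, and on chromosome 5, at 44.3%, which have the fewest members per 1000 tiles. It was lowest on chromosome 20, at 26.0%, and on chromosome 10, at 26.4%.

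**Figure D3:**
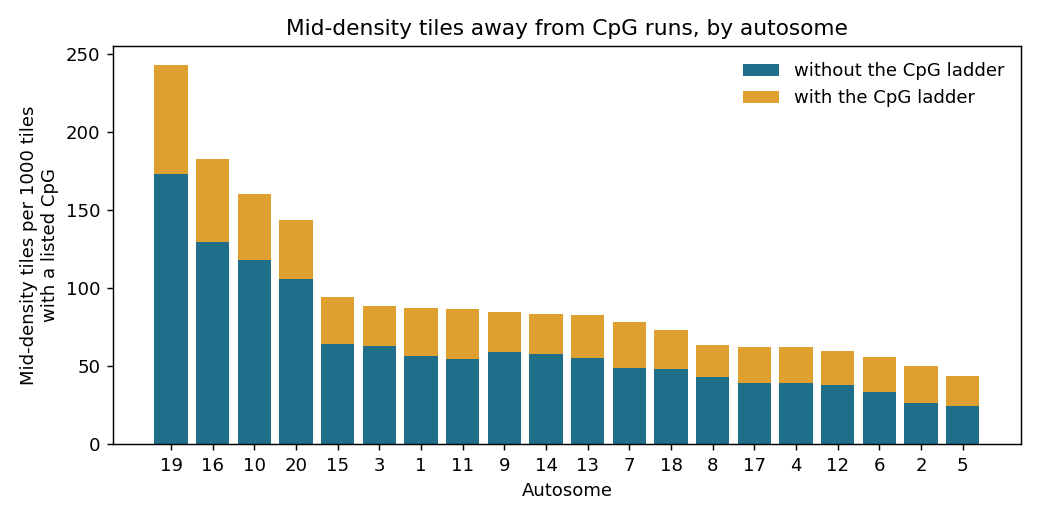
Mid-density tiles per 1000 tiles with a listed CpG on each autosome, in descending order, split into tiles without and with the CpG ladder. Chromosomes 19, 16, 10 and 20 stand above the other 16, from 243 to 144 per 1000, and the part without the ladder falls more steeply than the part with it.

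Members were more frequent towards the ends of the chromosomes, taken as the outermost listed CpGs. Within 1 Mb of an end there were 287 per 1000 tiles, from 1 to 5 Mb 255, from 5 to 10 Mb 140, from 10 to 20 Mb 95.3, and farther in 56.6. The value within 5 Mb exceeded that of the remainder on 20 of 20 autosomes, by a median of 3.68-fold. The ratio was highest on chromosome 6, at 5.94, with 265 against 44.6 per 1000. It was lowest on chromosome 19, at 1.298, where the interior already had 231 per 1000. Mean CpG number over all tiles moved the same way, from 21.9 within 1 Mb to 8.88 beyond 20 Mb, and so did near-run tiles, from 74.8 to 5.87 per 1000.

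The gradient was steeper for members without the ladder. They fell from 242 per 1000 tiles within 1 Mb of an end to 31.5 beyond 20 Mb, while members with it fell from 45.4 to 25.2. The ladder share of the members accordingly rose from 15.8% within 1 Mb to 44.5% beyond 20 Mb.

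**Figure D4:**
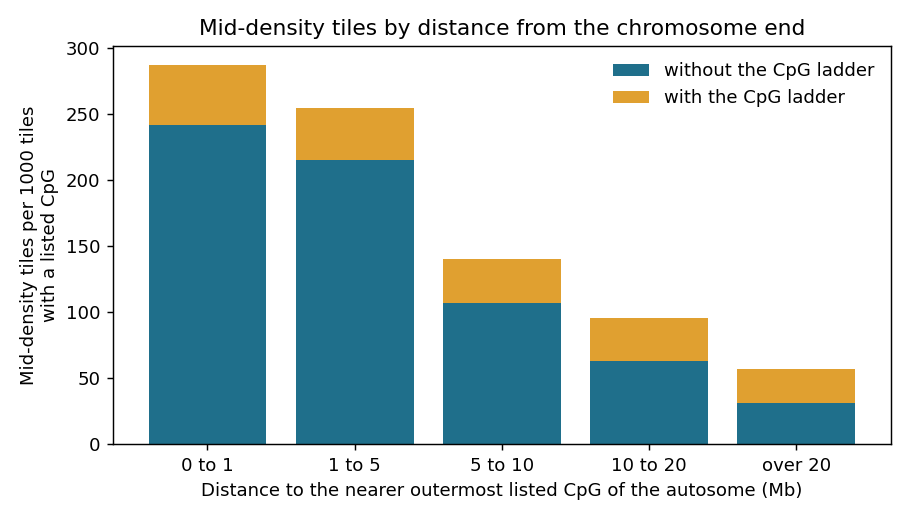
Mid-density tiles per 1000 tiles with a listed CpG, by distance in Mb from the nearer outermost listed CpG of the autosome, split into tiles without and with the CpG ladder. The total falls from 287 within 1 Mb to 56.6 beyond 20 Mb, mostly in the tiles without the ladder.

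Members were also more frequent in the neighbourhood of CpG runs than far from them, although the rule keeps them apart. Of tiles lying more than 2000 and up to 5000 bases from a run, 211 per 1000 were members. The value was 194 from 5000 to 10000 bases, 138 from 10000 to 50000, 86.8 from 50000 to 100000, and 42.0 beyond. The median distance of a member from the nearest run was 35251 bases, against 93694 for tiles of 5 to 19 CpGs beyond the same limit of 2000 bases. The ladder share went the other way, from 26.8% of members at 2000 to 5000 bases to 41.3% of those more than 100000 bases away. This is a share of the members, which grew fewer over the same distances. Per tile, members with the ladder were also less frequent beyond 100000 bases than at 2000 to 5000.

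The tiles on either side of a member were richer in CpGs than usual, over many kilobases. Tiles directly beside a member held a mean of 16.1 CpGs and tiles 20 kb away held 14.8, against 9.67 and 9.74 around tiles of 5 to 19 CpGs. Around members without the ladder the means were 18.3 beside the tile and 16.1 at 20 kb. Around members with it they were lower, 11.8 and 12.3, so that on average these tiles stood out more from their surroundings. Those means were still above the values around tiles of 5 to 19 CpGs. Around near-run tiles the tiles directly beside them held 35.6, the nearby run among them, and those at 20 kb held 17.9.

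**Figure D5:**
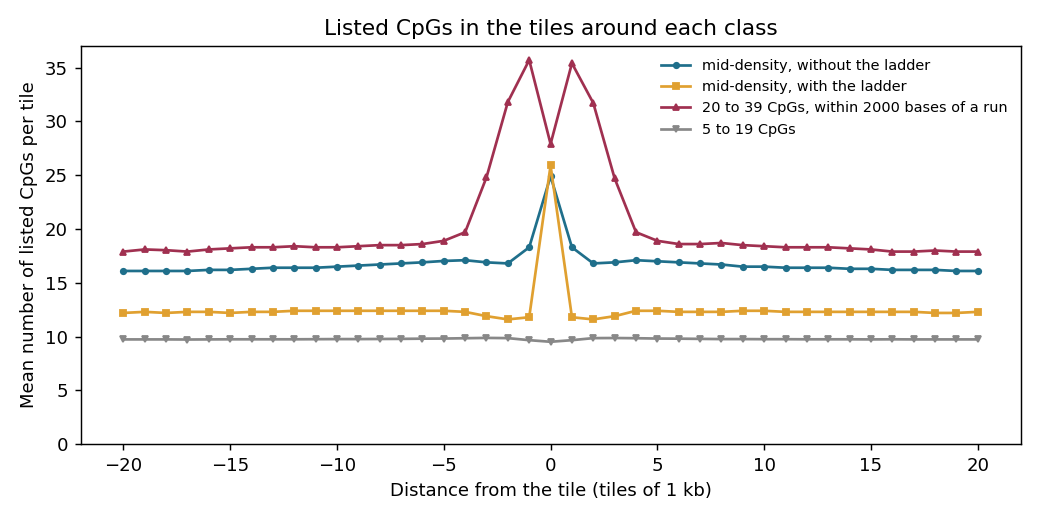
Mean number of listed CpGs per tile, by distance in tiles of 1 kb from mid-density tiles without and with the CpG ladder, near-run tiles, and tiles of 5 to 19 CpGs. The mean for members with the ladder forms a single-tile peak on a flank of 11.6 to 12.4. The flank of members without it is at 16.1 to 18.3, and tiles directly beside near-run tiles hold 35.6.

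About as many members stood alone as stood in groups. A member was adjacent to another in 96187 cases, or 45.4%, whereas 13.7% of tiles of 5 to 19 CpGs had a member beside them. The remaining 115729 members were single. The next member along the chromosome was at most 10 tiles away in 72.1% of cases. Stretches of 5 or more adjacent members numbered 3308 and held 10.1% of the members, and 275 stretches had 10 or more. Chromosome 3 had most of the latter, 34, followed by chromosome 10 with 28 and chromosome 16 with 27, and chromosome 18 had 1. The ladder was found in 45.4% of single members, 22.2% of those in stretches of 2 to 4 tiles, 10.1% in stretches of 5 to 9 and 6.84% in stretches of 10 or more. Mean CpG number rose over the same classes from 24.5 to 28.0, so the longer stretches had more CpGs per tile and fewer ladders.

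The longest stretch lay on chromosome 3 from base 42721001 to 42744000, with 23 adjacent members and 652 CpGs. Its tiles held 21 to 37 CpGs each, 0 of the 23 held the ladder, and its tiles were 14725 to 36725 bases from the nearest run. The next, on chromosome 16 from base 17446001 to 17467000, had 21 members and 514 CpGs, and 1 member held the ladder. There were 3 stretches of 20 members. The one first in order, on chromosome 3 from base 38842001 to 38862000, held 592 CpGs, and 4 of its members held the ladder. None of these tiles in the 3 stretches described held one of the known 5-spacing series within its bounds. Coordinates are 1-based and follow the table, for which the sources used here name no genome build.

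Over windows of 1 Mb the number of members ranged widely. Among the 2449 windows with at least 900 tiles that have a listed CpG, it ran from 8 to 497 with a median of 41, and 10% of windows had 172 or more. The fullest 245 windows held 35.7% of the members in these windows. The window with most members was on chromosome 1 from base 6000001 to 7000000, where 497 of 970 tiles were members and 132 more had 40 or more CpGs. The second was on chromosome 10 from base 2000001 to 3000000, with 488 members, and the third on chromosome 20 from base 83000001 to 84000000, with 481. The ladder was found in 4.83%, 8.40% and 7.90% of the members of these 3 windows, against 33.6% of all members. The emptiest window, on chromosome 13 from base 18000001 to 19000000, had 8 members among 970 tiles.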

How the data were processed

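The authors deposited one headerless table in BED layout, with a chromosome name, the start and end position of each CpG and 12 unnamed columns. Per the submitters' processing notes, reads were handled with Bismark, which aligns bisulfite-converted reads and calls methylation. The sources used here give neither its version nor the genome build, and name no filter on sites. The 12 unnamed columns could not be matched to animals and were not used. A comparison of methylation between the 3 high-ranking and 3 low-ranking animals, foreseen only for named columns, was therefore not run, and read depth per animal is not given here.

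The table has 26958235 lines. It was split at any white space, since 2591385 lines have a space in place of a tab. Start and end differed by 1 base on each line and positions increased along each chromosome. Positions are printed 1-based. Tiles without a listed CpG stay out of all counts per 1000 tiles but enter the means of flanking tiles with a value of 0. Distance to a run is 0 where tile and run overlap. A tile holds a spacing series when all 6 CpGs lie inside it. Regions named are the 3 longest stretches, the 3 fullest windows of 1 Mb and the extreme autosomes, and series named are the 6 most frequent in members plus the 2 known ones. The emptiest window was named after its value was seen.

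The members, lists and measures were chosen with earlier results of these data known, and the ladder was defined after its profile had been seen. No test was run, since chromosomes and tiles are not replicates. Software was numpy 2.4.6, numba 0.67.0, scipy 1.17.1, pandas 2.3.3 and matplotlib 3.10.9 under Python 3.11.15. They were tested on simulated positions, and 6 of 6 planted properties were recovered.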

Additional observations from a re-analysis of the deposited data

How the results depend on the processing

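No paired analysis was possible because the value columns could not be assigned to animals, and the planned coverage minimum was not run for the same reason. Shifting the tiles by 500 bases gave 212037 members and left the other results within their counting intervals. With a distance of 1000 bases from runs, members held 21.4% of the CpGs, chromosome 19 exceeded chromosome 5 by 5.86-fold, 45.8% were adjacent, and members exceeded near-run tiles by 8.66 points in the recurring series and 20.01 points in the ladder. With 5000 bases these were, in the same order, 18.9%, 4.699-fold, 43.9%, 5.84 and 13.3 points, with a series in 13.4%, 56.0% of CpGs in the densest 300 bases and a ratio of 1.95 at the 24 base spacing. With steps of up to 100 bases in a run all these were, in the same order, 16.4%, 4.03-fold, 37.03%, 9.55 and 22.6 points, 14.97%, 57.7% and 2.099. With runs of 20 or more CpGs there were 128866 members, holding 12.01% of the CpGs, with 4.402-fold, 40.03% adjacent, a series in 6.39%, 53.3% in the densest 300 bases and 1.73 at 24 bases. The differences from near-run tiles then reversed, to -13.2 points in the recurring series and -19.99 points in the ladder. A nearly full ladder copy can itself form a run of 20 CpGs, which makes its tile a near-run tile. How much of the reversal this accounts for was not tested. With 500 base tiles of 10 to 19 CpGs there were 479570 members holding 23.9% of the CpGs, and the further values, ordered as for 5000 bases, were 4.15-fold, 46.2%, 2.05 and 7.29 points, 3.48%, 81.8% and 1.68. A tile of 500 bases has less room for a whole series and is more nearly filled by 300 bases.

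The differences from near-run tiles and the remaining alternatives were chosen after seeing the data. The ladder share of 33.6% became 38.9% with 7 or more CpGs on ladder positions and 21.8% with 10 or more, where near-run tiles had 22.6% and 9.995%. The odd-numbered autosomes gave the same 23 positions as all autosomes. The share of 33.2% on even-numbered autosomes was therefore bound to be the same with either set of positions. The ratio at 24 bases stayed 1.93 with 4 spacings on either side. Because depth is unknown, how many listed CpGs were covered in any animal is not known.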
